A study of Mus musculus with 15 samples.

Results

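Transcripts of 10 genes were followed across 3 cell populations that the study sorted as tumor endothelium. The set was built around the apelin and sphingosine 1-phosphate (S1P) receptors and other G protein-coupled receptors (GPCRs) of endothelium. The genes were *Apln*, *Aplnr*, *Esm1*, *S1pr1*, *S1pr3*, *Adgrf5*, *Adgrl4*, *Calcrl*, *Ramp2* and *Ednrb*, taken by name from a table of 53465 genes, and *Esm1* was added as a tip cell gene. They were chosen by their normalized counts in all 3 populations, which were known, so their levels and differences are given as a description, with no test. All 10 passed the filter on low values, a mean over libraries of 5 normalized counts or more.

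The cells were sorted from tumors of the mouse melanoma line B16-F0 grown in CAG-GFP mice, whose own cells carry GFP from a ubiquitous promoter. The mice were between 8 and 14 weeks old and of both sexes, and the tumors were collected on day 15. GFP positive cells without lineage markers and with CD34 were divided by CD31 and VEGFR2. Endovascular progenitors (EVP) were low for both, transit amplifying cells (TA) were intermediate for CD31 and low for VEGFR2, and definitive differentiated cells (D) were high for both. Each population had 5 libraries. The sources used here do not say whether these came from separate animals, so every p measures only the spread between these libraries, which may be technical. In these mice GFP marks host cells of any type and not the tumor cells, although melanoma transcripts were found in the libraries of every population (below).

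GPCRs span the cell membrane and pass a signal from outside the cell to G proteins within it. Apelin is secreted by sprouting endothelium and binds the apelin receptor, which is also carried by endothelial cells, especially of veins. S1P is a blood lipid whose receptor S1P1 strengthens endothelial junctions and limits sprouting, while S1P3 is shared by endothelium, smooth muscle and fibroblasts. Calcitonin receptor-like receptor becomes an adrenomedullin receptor when it pairs with the accessory protein RAMP2, and adrenomedullin is needed for vessels and lymphatics to form. Endothelin receptor B on endothelium clears endothelin and drives release of nitric oxide, and the adhesion receptors ADGRF5 and ADGRL4 are known markers of vascular endothelium.

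Each library held 5394356 to 26513073 reads on genes (median 19049194), and 3 reads, taken as the limit of detection, were worth 1.81 to 10.5 normalized counts. Limits of this kind cover counting error only. Replicate 1 stood apart in each population, as the predicted gene *Gm10800* took 8.50% to 10.6% of its reads and at most 0.701% in any other library, and it had at most 12456809 reads where every other library had at least 13145822. Reads on olfactory receptor genes were not confined to replicate 1, where 81.6% to 98.3% of these genes had a read. The share was 61.8% in EVP replicate 2, 57.8% in TA replicate 2, 71.0% in TA replicate 3 and 2.89% to 24.1% in the remaining libraries. Beside the endothelial label, levels are given of the endothelial markers *Tie1*, *Esam*, *Egfl7*, *Erg*, *Cldn5* and *Ecscr*. Their summed level was 1146 to 3662 normalized counts in EVP, 5698 to 37741 in TA and 52445 to 81385 in D, and *Erg* was at 0 in at least 1 EVP library. All 6 were higher in D than in EVP by limma at an adjusted p under 0.05. Fibroblast markers (*Col1a1*, *Col3a1*, *Dcn*, *Lum*, *Dpt*, *Pdgfra*) went the other way, with sums of 681179 to 1251290 in EVP, 156991 to 505448 in TA and 833 to 3242 in D, and 6 of 6 were higher in EVP than in D. The study had already reported *Tie1*, *Esam* and *Cldn5* as higher in D. It had reported *Col3a1*, *Dcn*, *Dpt* and *Pdgfra* as higher in EVP. These directions were therefore known beforehand and do not test the label. Mural markers (*Cspg4*, *Kcnj8*, *Abcc9*, *Notch3*, *Myh11*, *Acta2*) summed to 3461 to 21100 in EVP, 4362 to 57990 in TA and 3156 to 9222 in D, and the highest sum was that of TA replicate 5. Melanoma markers summed to 29156 to 66912 in EVP, 68700 to 175253 in TA and 18070 to 47749 in D, and 5 leukocyte markers to 1713 to 8918, 5464 to 32099 and 2663 to 8576. In EVP and in TA every fibroblast and melanoma sum was above every endothelial sum, and in D every endothelial sum was above those. These sums alone therefore do not bear out the endothelial label for EVP and TA, but sums of different genes do not measure shares of cells. The study bases the label on lineage tracing in other mice. There, most tumor cells with CD34 and without lineage markers carried a label driven by *Cdh5*, the gene of VE-cadherin. The part of other cells in the levels below was not tested, and in sorted bulk samples fewer cells of a type and less RNA per cell cannot be told apart.

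In 9 of the 10 genes the mean was highest in D and lowest in EVP, and *S1pr3* was the exception, with its highest mean in EVP. Between EVP and D the libraries of each of the 10 genes did not overlap, with 9 higher in D and 1 higher in EVP. Of all 25549 genes tested, 17.7% had libraries that did not overlap there, 7.52% with D and 10.2% with EVP higher. The median log2 difference of the 10 genes, D minus EVP, was 6.12, and that of all tested genes was -0.46. Between TA and D, libraries did not overlap for 8 genes higher in D and for *S1pr3*, higher in TA, and *Apln* overlapped, beside 9.25% without overlap among all genes (3.69% with D and 5.56% with TA higher). Between EVP and TA, libraries did not overlap for *Adgrf5* and *Ednrb*, both higher in TA, and overlapped for the other 8, beside 4.29% without overlap among all genes (1.59% with TA and 2.7% with EVP higher). These counts follow from how the genes were chosen and are read no further.

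**Figure D1:**
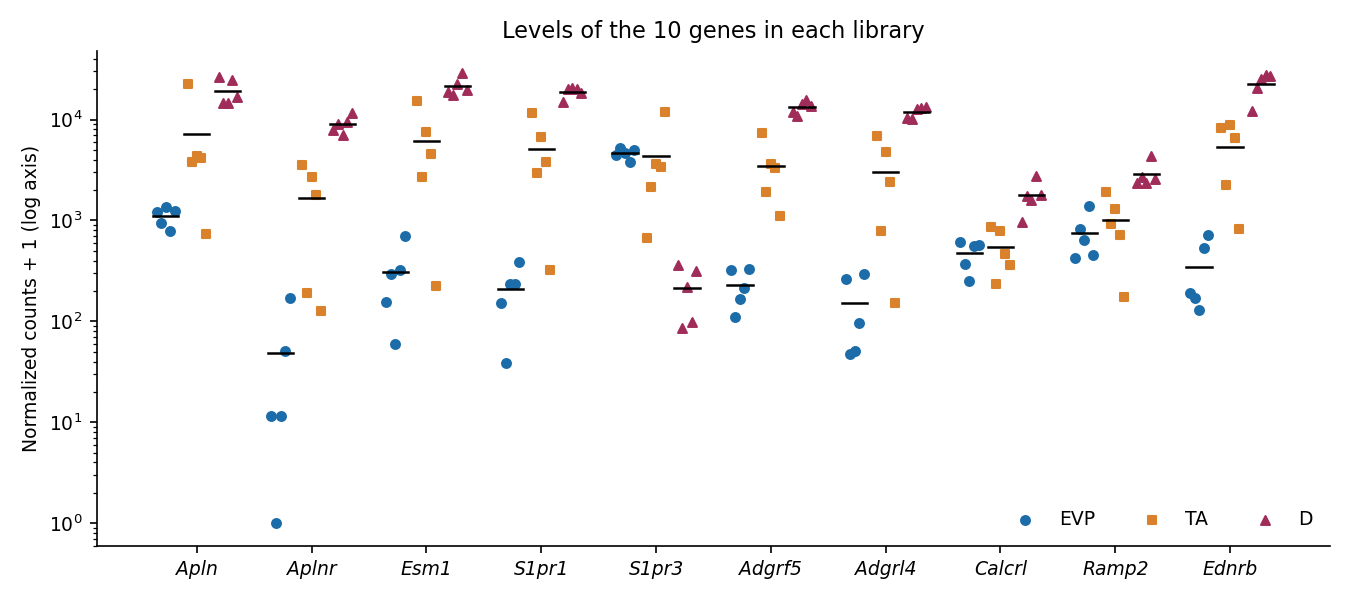
Normalized counts plus 1 (log axis) of the 10 genes in each of 15 libraries, as circles for EVP, squares for TA and triangles for D, with a black bar at the mean of each population. The triangles lie above all circles for 9 genes and below them for *S1pr3*, and the TA squares are spread the most for every gene but *Aplnr*, whose circles are.

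*Apln* (ENSMUSG00000037010, GRCm38 chrX:48025146-48034853, minus strand) encodes apelin, the peptide ligand. It had 1201, 938, 1371, 781 and 1229 normalized counts in EVP replicates 1 to 5, then 22579, 3830.1, 4369.6, 4187 and 737 in TA and 26336, 14659, 14735, 24426 and 16784 in D. Every D library was above every EVP library, whereas TA ran from below the lowest EVP library in replicate 5 to above 3 of the D libraries in replicate 1. The means were 1104 ± 239 (SD, n = 5) in EVP, 7141 ± 8757 in TA and 19388 ± 5578 in D. The mean in D was 17.6-fold that in EVP, a log2 difference of 4.12 (SE 0.57). *Apln* transcripts were well above the limit of detection in EVP too, with at least 342 reads in each EVP library. Which cells held them was not tested.

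*Aplnr* (ENSMUSG00000044338, chr2:85136225-85139923, plus strand) encodes the apelin receptor and differed most between EVP and D of the 10 genes. EVP replicates 1 to 5 had 10.5, 0, 10.6, 49.6 and 168 normalized counts, TA had 3537, 192, 2709, 1797 and 126, and D had 7953, 9102, 7055, 9523 and 11719.6. Behind the EVP values stood 3, 0, 13, 62 and 243 reads, so that 2 EVP libraries were at or under the limit of detection. The means were 47.8 ± 69.8 in EVP, 1672 ± 1512 in TA and 9071 ± 1770 in D. The ratio of D to EVP means was 190, and the log2 difference of 9.10 (SE 1.11) depends on the pseudocount of 1. Per kilobase of exon, the ratio of *Aplnr* to *Apln* means was 0.037 in EVP, 0.199 in TA and 0.398 in D. The log2 ratio lay between -10.11 and -3.10 in single EVP libraries and between -1.96 and -0.75 in single D libraries, so the ranges did not overlap.

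The second ligand and a peptidase of the apelin system were also measured. *Apela*, the second ligand of the receptor, had 70.2 normalized counts in EVP replicate 1 and 0 in the other EVP libraries, and at most 8.72 in any TA or D library. *Mme*, a membrane peptidase that can cleave apelin, was 184 ± 146 in EVP and 2.70 ± 3.84 in D (log2 -5.92, limma adjusted p = 5.16e-05).

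*Esm1* (ENSMUSG00000042379, chr13:113209659-113218098, plus strand) encodes endocan, a secreted proteoglycan known from tip cells, the leading cells of sprouts. Its levels were 154, 294, 58.1, 321 and 704 normalized counts in EVP, 15383, 2699.6, 7509, 4527 and 221 in TA and 18682, 17474, 22312, 28796 and 19601 in D. TA replicate 5 lay within the EVP range, and the other TA libraries lay between the EVP and D ranges. The means were 306 ± 247, 6068 ± 5847 and 21373 ± 4516, so that D was 69.8-fold higher than EVP (log2 6.53, SE 0.84). Per kilobase, *Esm1* had the highest mean of the 10 genes in D, at 10192 ± 2153 normalized counts per kb. Of 8 other tip cell genes, among them *Angpt2*, *Dll4*, *Pdgfb* and *Cxcr4*, all 8 were higher in D than in EVP by limma at an adjusted p under 0.05 (median log2 difference 5.70), as were 7.46% of all genes. Their log2 differences included 6.89 for *Angpt2*, 7.67 for *Dll4* and 8.11 for *Pdgfb*. That list overlaps genes already known from these data, so its count is not independent of them.

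*S1pr1* (ENSMUSG00000045092, chr3:115710433-115715072, minus strand) and *S1pr3* (ENSMUSG00000067586, chr13:51408639-51422797, plus strand) encode receptors for the same lipid and ran in opposite directions. *S1pr1* had 151, 37.9, 236, 233 and 388 normalized counts in EVP, 11722, 2970.4, 6778, 3831 and 326 in TA and 14969, 20069, 20683, 20049 and 18372 in D. *S1pr3* had 4469.6, 5192, 4620.5, 3823 and 5029 in EVP, 672, 2153, 3657, 3353 and 11830.4 in TA and 361, 85.7, 216, 98.4 and 314 in D. *S1pr1* was even in D and *S1pr3* in EVP, and both were scattered in TA, where replicate 5 combined the lowest *S1pr1* with the highest *S1pr3* and replicate 1 the reverse. The means of *S1pr1* were 209 ± 128, 5126 ± 4348 and 18828 ± 2322 (D over EVP 90.1-fold, log2 6.81, SE 0.73). Those of *S1pr3* were 4627 ± 537, 4333 ± 4353 and 215 ± 124 (EVP over D 21.5-fold, log2 D minus EVP -4.64, SE 0.56). *S1pr3* varied less in EVP than any of the other 9 genes, with an SD of 0.17 on the log2 scale.

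Per kilobase of exon, the mean of *S1pr1* was 0.066 times that of *S1pr3* in EVP, 1.73 times in TA and 128 times in D. In single TA libraries the log2 ratio ran from -4.63 to 4.67, and in D from 5.92 to 8.41. This pair and the other pairs below were set side by side after their levels had been seen. TA replicate 5, with the highest *S1pr3*, also had the highest summed levels of mural (57990) and fibroblast (505448) markers among TA libraries, and replicate 1, with the lowest *S1pr3*, had the lowest of both (4362 and 156991). The part of these cells in the level of *S1pr3* was not tested.

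The proteins that make, move and break down S1P also divided between the populations. Of 13 tested genes of the pathway other than the receptors above, 4 were higher in D than in EVP, 4 were higher in EVP and 5 did not pass, with a median log2 difference of 0.13 beside -0.46 for all genes. Of all genes 7.46% were higher in D and 11.6% higher in EVP. *Spns2*, the transporter that exports S1P from endothelium, had 28.1, 2.61, 3.27, 19.2 and 11.8 in the EVP libraries and 781, 1127, 829, 1421 and 938 in D (log2 6.60, SE 0.80, limma adjusted p = 8.70e-06). *Sphk1*, the kinase that makes S1P, was lower in D, with 812 ± 249 in EVP, 390 ± 161 in TA and 34.8 ± 24.6 in D (log2 -4.71, limma adjusted p = 8.20e-07). Its relative *Sphk2* was at 206 ± 83.1 in EVP and at 214 ± 53.7 in D (limma adjusted p = 0.929). The third receptor, *S1pr2*, sided with *S1pr3*, from 1297 ± 430 in EVP to 173 ± 35.8 in D (log2 -2.87, limma adjusted p = 7.54e-05).

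The phosphatases and the lyase that remove S1P were mixed. *Plpp1* (log2 2.65) and *Plpp2* (log2 2.47) were higher in D and *Sgpp1* (log2 -4.19) higher in EVP, and *Plpp3* overlapped, with a log2 difference of -0.15 (limma adjusted p = 0.825). *S1pr4*, a receptor better known from leukocytes, was also higher in D (log2 4.13, limma adjusted p = 0.0145), at 180 ± 47.5 normalized counts beside 14.7 ± 11.5 in EVP. *Sgpl1*, the S1P lyase, passed with a log2 difference of -0.83 (limma adjusted p = 0.0296), and this call was lost when EVP replicate 3, 4 or 5 or D replicate 1 or 4 was left out, with log2 differences of -0.84 to -0.70, and also in edgeR (log2 -0.74), with no minimum mean (log2 -0.83) and with libraries scaled to the same total (log2 -0.72).

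**Figure D2:**
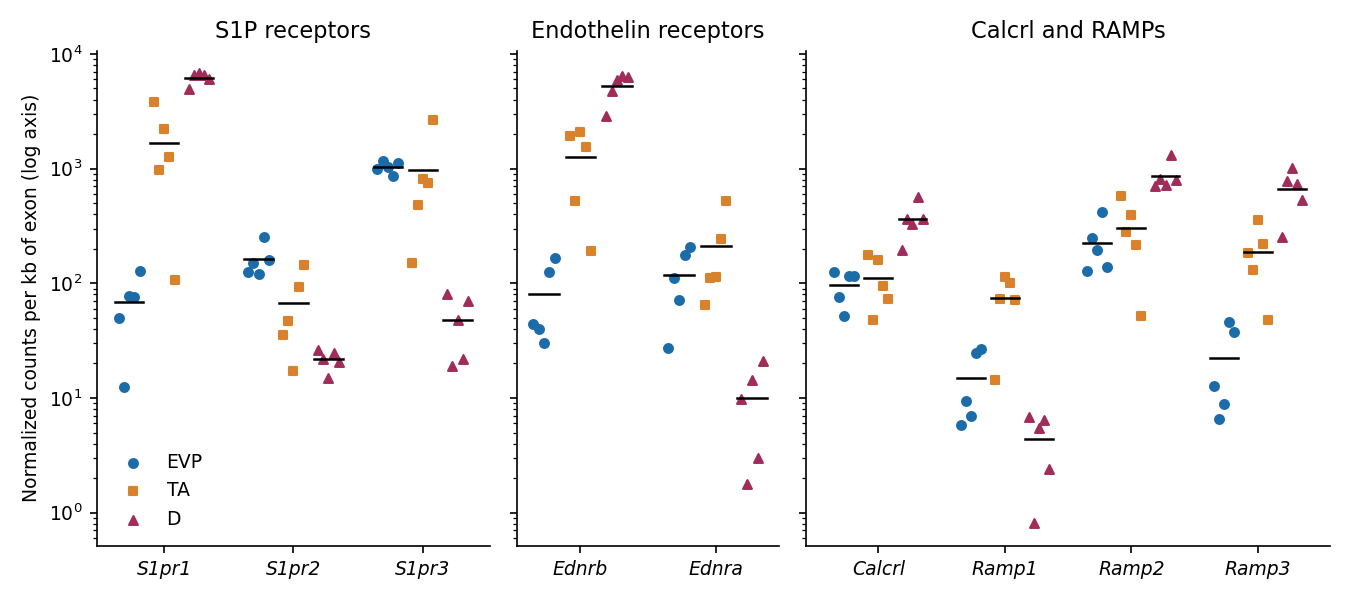
Normalized counts per kb of exon (log axis) for S1P receptors, endothelin receptors and *Calcrl* with the RAMP genes, as circles for EVP, squares for TA and triangles for D, with a black bar at each mean. *S1pr1* and *Ednrb* are highest in D, where *S1pr2*, *S1pr3*, *Ednra* and *Ramp1* are lowest.

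*Adgrf5* (ENSMUSG00000056492, chr17:43360451-43459557, plus strand) and *Adgrl4* (ENSMUSG00000039167, chr3:151437887-151545086, plus strand) encode adhesion GPCRs, which carry a long extracellular part that is cut from the membrane part. The 250 bases before their starts are printed here because these genes moved together, and that of *S1pr3* because it moved the opposite way. The sequences are from RefSeq on GRCm38.p6, chr17:43360181-43360430 (plus strand), chr3:151437632-151437881 (plus strand) and chr13:51408368-51408617 (plus strand). Capitals mark the core letters GGAAG, bound by ETS factors, or CTTCC, the same core on the other strand.
Adgrf5: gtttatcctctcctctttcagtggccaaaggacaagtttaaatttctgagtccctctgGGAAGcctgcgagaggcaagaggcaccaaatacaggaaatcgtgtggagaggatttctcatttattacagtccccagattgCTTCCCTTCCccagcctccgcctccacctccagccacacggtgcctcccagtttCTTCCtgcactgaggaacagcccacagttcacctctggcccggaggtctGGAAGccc
Adgrl4: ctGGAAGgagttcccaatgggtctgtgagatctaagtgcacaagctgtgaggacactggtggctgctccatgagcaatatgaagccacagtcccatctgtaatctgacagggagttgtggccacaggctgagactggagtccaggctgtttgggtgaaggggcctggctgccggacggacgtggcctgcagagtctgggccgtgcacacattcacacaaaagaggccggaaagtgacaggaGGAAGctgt
S1pr3: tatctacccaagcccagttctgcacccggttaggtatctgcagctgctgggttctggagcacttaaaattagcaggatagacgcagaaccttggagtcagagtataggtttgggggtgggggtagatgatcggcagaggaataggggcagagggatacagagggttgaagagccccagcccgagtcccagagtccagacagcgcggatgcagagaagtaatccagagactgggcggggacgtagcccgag
The printed *Adgrf5* window held 5 of these cores and a second window of that gene (chr17:43389216-43389465, plus strand, not printed) held 2, that of *Adgrl4* held 2 and that of *S1pr3* held none. Of the 10 genes, 7 had such a window in the tables used, and *Aplnr*, *S1pr1* and *Ramp2* did not. The core was in at least 1 window of 5 of the 7, among them *Apln*, *Ednrb* and *Calcrl*, and in 64.1% of the 32851 windows of all genes. It was absent from the windows of *S1pr3*, which was highest in EVP, and of *Esm1*, which was highest in D. Of the 7 genes only *S1pr3* was higher in EVP than in D, and a link of the core to direction was not tested. The core ACAAT of SOX factors (or ATTGT) was in 1 of the 7, *Calcrl*, and in 27.7% of all windows. The 2 cores do not share letters in any of these windows. Other motifs had been looked at before these cores of textbook endothelial factors were kept, and a match in letters does not show binding.

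*Adgrf5* had 323, 110, 166, 215 and 333 normalized counts in EVP, 7436, 1894, 3607, 3302 and 1099.7 in TA and 11867, 10808, 14276, 15772 and 13733 in D. No library of one population entered the range of another. Its means were 229 ± 97.6, 3468 ± 2443 and 13291 ± 1969 (D over EVP 57.9-fold, log2 5.95, SE 0.40). *Adgrl4* had 263, 47.0, 49.9, 95.9 and 292 in EVP, 6856, 785, 4740.1, 2428 and 151 in TA and 10460.1, 10022, 12761, 12928 and 13252 in D. Here TA replicate 5 lay inside the EVP range. The means of *Adgrl4* were 150 ± 119, 2992 ± 2795 and 11885 ± 1519 (79.4-fold, log2 6.71, SE 0.80). The log2 ratio of *Adgrf5* to *Adgrl4* per kilobase hardly varied in D, with an SD of 0.09 beside 0.65 in EVP and 1.27 in TA, and the mean of *Adgrf5* per kilobase was 0.569 times that of *Adgrl4* in D.

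The rest of the adhesion family split. Of 26 other members tested, 4 were higher in D than in EVP, 5 were higher in EVP and 17 did not pass, and their median log2 difference was -1.30. Of all genes 7.46% and 11.6% passed as higher in D and in EVP. *Adgrg3* (log2 6.54), *Adgrg1* (log2 3.84) and *Adgrl2* (log2 3.10) were higher in D, with limma adjusted p of 1.71e-06, 7.91e-06 and 1.86e-06. *Adgrd1* was higher in EVP by the widest margin of any pathway gene listed, at 7853 ± 2494 in EVP against 9.82 ± 16.8 in D (log2 -10.60, limma adjusted p = 3.59e-09). *Adgrg2* (log2 -7.47), *Adgra1* (log2 -3.86) and *Adgra2* (log2 -2.07), the last a partner in WNT7 signaling, were higher in EVP too. *Adgra1* did not pass in edgeR (adjusted p = 0.0981). *Adgrg3* in EVP, and *Adgrd1*, *Adgrg2* and *Adgra1* in D, had libraries at 0, so the sizes of their differences depend on the pseudocount. *Adgre5* (log2 1.5) and *Adgrg6* (log2 -3.53) were past the threshold, and lost it in edgeR (adjusted p = 0.0901 and 0.123), with quantile normalization (adjusted p = 0.0553 and 0.0881) and without single libraries. For *Adgre5* these were EVP replicates 1, 2 and 3 and D replicates 2, 3 and 4 (log2 1.11 to 1.45), and for *Adgrg6* D replicates 2 and 5 (log2 -3.12 and -2.85).

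*Calcrl* (ENSMUSG00000059588, chr2:84330626-84425411, minus strand) and *Ramp2* (ENSMUSG00000001240, chr11:101246028-101259546, plus strand) encode the receptor and the accessory protein of the adrenomedullin receptor, and they differed least between EVP and D of the 10 genes. *Calcrl* had 618, 372, 252, 563 and 565 normalized counts in EVP, 865, 232, 779, 465 and 357 in TA and 957, 1761, 1602, 2762 and 1783 in D. *Ramp2* had 425, 814, 641, 1380.3 and 458 in EVP, 1896, 931, 1302, 715 and 172 in TA and 2329.8, 2703, 2356, 4377 and 2605 in D. In both genes EVP and TA were mixed and D lay above them. The means were 474 ± 155, 540 ± 272 and 1773 ± 647 for *Calcrl* (D over EVP 3.74-fold, log2 1.90, SE 0.36). For *Ramp2* they were 743 ± 389, 1003 ± 645 and 2874 ± 855 (3.87-fold, log2 2.05, SE 0.49). Per kilobase, *Ramp2* had 2.32 times the mean of *Calcrl* in EVP, 2.75 times in TA and 2.40 times in D.

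The transcripts of the other accessory proteins had patterns of their own. *Ramp3*, which also makes an adrenomedullin receptor with *Calcrl*, had 30.8 ± 24.9 normalized counts in EVP, 261 ± 159 in TA and 912 ± 392 in D (log2 D minus EVP 5.09, limma adjusted p = 4.50e-06). *Ramp1*, which makes the receptor for calcitonin gene-related peptide, was highest in TA, with 44.7 ± 30.7 in EVP, 226 ± 116 in TA and 13.2 ± 8.0 in D. The difference of *Ramp1* between TA and D passed (log2 -4.0, limma adjusted p = 0.00067), and those of TA (adjusted p = 0.0733) and D (adjusted p = 0.102) from EVP did not. With quantile normalization its call between TA and D was lost (adjusted p = 0.067). Per kilobase, the mean of *Ramp3* was 0.230 times that of *Calcrl* in EVP and 1.82 times in D, and that of *Ramp1* was 0.678 times in TA and 0.012 times in D.

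The ligand *Adm* was at 13104 ± 7414 in EVP and at 7254 ± 2295 in D and did not pass (limma adjusted p = 0.205). *Ackr3*, a receptor that takes up adrenomedullin and CXCL12 without G protein signaling, was higher in EVP than in D (log2 -2.22, limma adjusted p = 1.13e-05) and TA (log2 -1.60, limma adjusted p = 0.00481). Of the listed genes it was the only 1 that passed as higher in EVP than in TA, whereas DESeq2 called 7 such genes, a pseudocount of 8 gave 5 and the replicate block 4. Of 7 tested genes of this group, 1 was higher in D than in EVP (7.46% of all genes), 1 was higher in EVP (11.6% of all genes) and 5 did not pass (median log2 difference -1.69).

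*Ednrb* (ENSMUSG00000022122, chr14:103814625-103844402, minus strand) encodes endothelin receptor B. It had 190, 171, 129, 533 and 713 normalized counts in EVP, 8211, 2248, 8902, 6548 and 822 in TA and 12261, 20482, 25482, 27418 and 26895 in D. No library of one population entered the range of another, although EVP replicate 5 and TA replicate 5 came close to each other. The means were 347 ± 261, 5346 ± 3618 and 22508 ± 6350 (D over EVP 64.8-fold, log2 6.29, SE 0.59). *Ednrb* is also known from melanocytes and melanoma cells. Melanoma marker sums were highest in TA, whereas *Ednrb* was highest in D, where those sums were 18070 to 47749, and the part of tumor RNA in its level was not tested.

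*Ednra*, the endothelin receptor of smooth muscle and fibroblasts, went the other way, with 650 ± 400 normalized counts in EVP, 1160 ± 1026 in TA and 54.7 ± 43.9 in D (log2 D minus EVP -3.74, limma adjusted p = 0.000708). As for *S1pr3*, its highest library was TA replicate 5, at 2874, which also had the highest mural marker sum. The part of mural cells in the level of *Ednra* was not tested. Per kilobase, the mean of *Ednrb* was 0.686 times that of *Ednra* in EVP, 5.92 times in TA and 528 times in D. *Ece1*, the enzyme that makes active endothelin, was higher in D than in EVP (2839 ± 691 and 10846 ± 1589.7, log2 1.95, limma adjusted p = 3.07e-06). The ligand *Edn1* had 575 ± 304 in EVP, 448 ± 305 in TA and 1334 ± 315 in D. Its difference between EVP and D did not pass (log2 1.37, limma adjusted p = 0.0893), and that between TA and D did (log2 1.94, limma adjusted p = 0.0216) but was lost without D replicate 2 (log2 1.85, adjusted p = 0.0557) or 3 (log2 1.89, adjusted p = 0.0502).

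Levels were next set against the endothelial markers of the same library, as the log2 level of each gene minus the mean log2 level of the 6 markers, which itself was 6.32 higher in D than in EVP. On this scale *Esm1* (0.20, SE 0.50), *S1pr1* (0.49, SE 0.34), *Adgrf5* (-0.37, SE 0.30), *Adgrl4* (0.38, SE 0.33) and *Ednrb* (-0.04, SE 0.29) had small differences, D minus EVP, with EVP and D libraries that overlapped. These 5 genes therefore ran close to the endothelial markers. *Aplnr* stayed higher in D (2.78, SE 0.78), with no overlap. *Apln* (-2.21, SE 0.56), *Calcrl* (-4.43, SE 0.41) and *Ramp2* (-4.28, SE 0.66) were lower in D relative to the markers, with no overlap, and *S1pr3* was lower by the widest margin (-10.97, SE 0.73). Relative to the markers, *Calcrl* and *Ramp2* were also lower in TA than in EVP with no overlap (-3.79, SE 0.67, and -3.69, SE 0.66). The median over the 10 genes was -0.20. *Erg* at 0 in EVP makes the marker mean of EVP depend on the pseudocount, and with a pseudocount of 8 this median was 0.11.

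**Figure D3:**
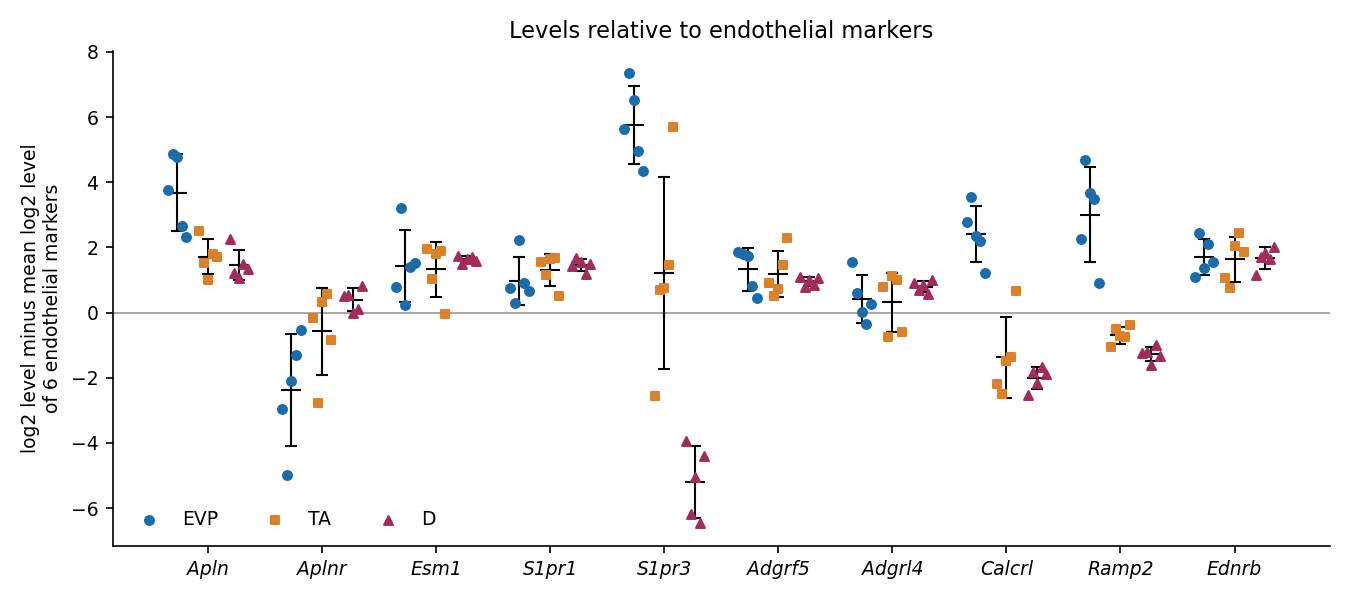
Log2 level of each gene minus the mean log2 level of 6 endothelial markers in the same library, as circles for EVP, squares for TA and triangles for D, with the mean and SD in black. The populations overlap for *Esm1*, *S1pr1*, *Adgrf5*, *Adgrl4* and *Ednrb*, and *S1pr3* falls from EVP to D.

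The SD on the log2 scale was largest in TA for 9 of the 10 genes, and in EVP for *Aplnr*. A position was computed for TA on the log2 scale, with 0 at the EVP mean and 1 at the D mean. Over the 10 genes its median was 0.57, from 0.05 for *Calcrl* to 0.63 for *Aplnr* and *Adgrf5*. In single TA libraries the median over the genes was 0.86, 0.43, 0.73, 0.66 and 0.03 in replicates 1 to 5, and the position of the endothelial markers was 0.88, 0.63, 0.74, 0.61 and 0.23. Replicate 1 was thus closest to D and replicate 5 closest to EVP for both. For 8 of the 10 genes the SD over TA libraries was smaller relative to the markers than as a plain level, for example 0.54 and 1.75 for *Apln* and 0.26 and 1.32 for *Ramp2*. *S1pr3* and *Calcrl* were the other 2, with 2.95 and 1.49 and with 1.23 and 0.79. The differences from TA rest in part on these libraries. Without TA and EVP replicate 5 the median log2 difference TA minus EVP was 4.48 and without replicate 1 of every population it was 3.24, beside 3.77 with all libraries.

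**Figure D4:**
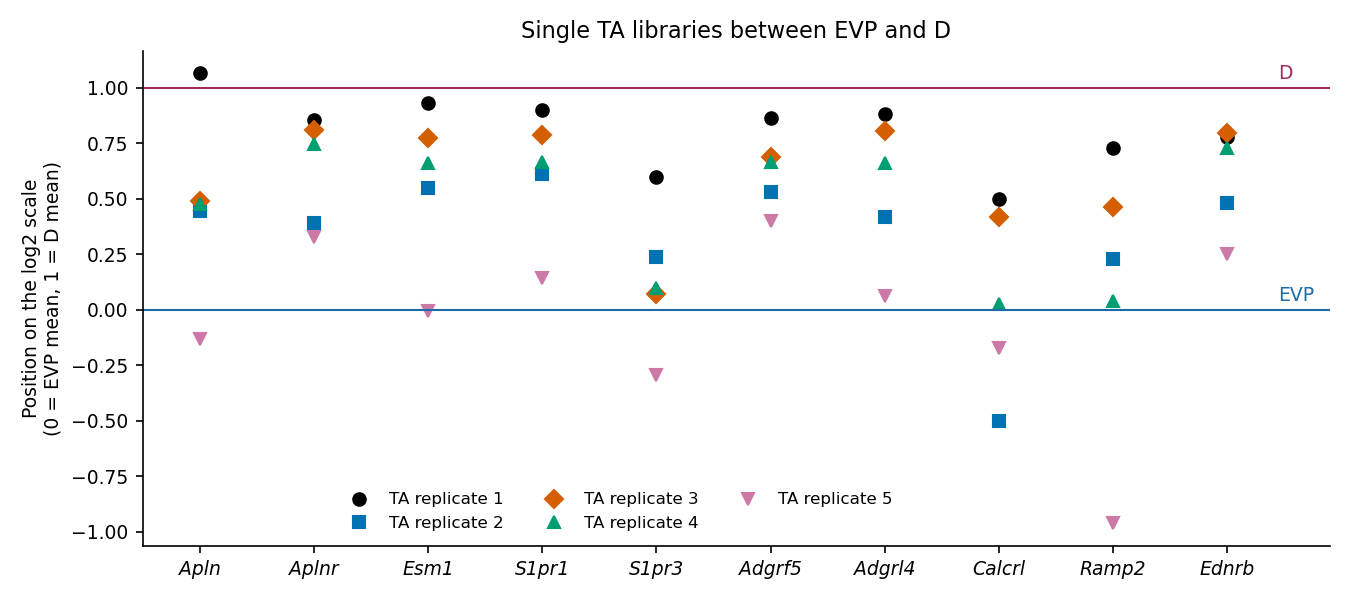
Position of each TA library between the EVP mean (0) and the D mean (1) on the log2 scale, for each of the 10 genes, with 1 symbol per TA replicate. TA replicate 1 lies near D and TA replicate 5 near or beyond EVP for most genes, with a median of 0.86 and 0.03.

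Likeness between genes was described by the SD, over the 15 libraries, of the log2 ratio of 2 genes, so that a small value means a steady ratio. Among the 10 genes the steadiest pairs were *Adgrf5* with *Ednrb* (0.66), *Esm1* with *Ednrb* (0.72) and *S1pr1* with *Adgrl4* (0.75), and the least steady was *Aplnr* with *S1pr3* (6.29). *Calcrl* and *Ramp2* had 0.79. Among the 11292 genes whose mean reached 100 normalized counts, the nearest to *S1pr1* were *Icam2* (0.40), *Egfl7* (0.41) and *Mmrn2* (0.42). *Adgrl4* was nearest to *Arhgef15* (0.40), *4930502E18Rik* (0.45) and *Pecam1* (0.47), the gene of CD31, which was used in the gate. *Ednrb* was nearest to *Cd300lg* (0.44), *Flt4* (0.50) and *Flt1* (0.51), the last 2 encoding VEGF receptors, and *Esm1* to *Sema3f* (0.52), *Afap1l1* (0.52) and *Pecam1* (0.53).

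*Aplnr* had *Robo4* (0.95), *Fam167b* (1.00) and *Dll4* (1.15) nearest. The SD of its own log2 level over the 15 libraries was 4.33, beside 1.08 for *Calcrl* and 1.26 for *Ramp2*. The values of genes that differ in spread are therefore not ranked against each other. *Apln* was nearest to *Myzap* (0.46), *Sh3bgrl2* (0.52) and *Gchfr* (0.54), and *Adgrf5* to *Tnfaip8l1* (0.45), *Arap3* (0.48) and *Gimap6* (0.52). *Calcrl* was nearest to *Cmip* (0.33), *Mgll* (0.45) and *Apbb2* (0.46), and *Ramp2* to *Hspa12b* (0.45), *Card10* (0.46) and *Unc45b* (0.46). *S1pr3* was nearest to *Enpep* (0.69), *Hoxc10* (0.69) and *Ndufa4l2* (0.70). The 15 points share their populations and libraries, so these values describe a pattern across them and nothing more.

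Of all 103 tested genes of the 8 lists, 32 were higher in D than in EVP, 18 were higher in EVP and 53 did not pass, with a median log2 difference of -0.05. Of all genes 19.0% passed, 7.46% with D and 11.6% with EVP higher. The lists were drawn up with earlier results of these data known, and the 32 include the 8 tip cell genes. Among 22 other vascular GPCRs, 7 were higher in D (7.46% of all genes), 5 were higher in EVP (11.6% of all genes) and 10 did not pass (median log2 difference 0.64). Of the receptors for lysophosphatidic acid, *Lpar6* was higher in D (235 ± 59.0 in EVP and 4965 ± 1237 in D, log2 4.40, limma adjusted p = 8.57e-07) and *Lpar1* higher in EVP (3553 ± 1293 and 12.0 ± 12.4, log2 -8.97, limma adjusted p = 1.47e-07), and *Lpar4* did not pass (log2 0.66, limma adjusted p = 0.293). Of the adenosine receptors listed, *Adora2a* was higher in D (log2 4.0, limma adjusted p = 4.72e-08) and *Adora2b* higher in EVP (log2 -7.20, limma adjusted p = 1.45e-06). Of the protease-activated receptors, *F2r* (log2 1.37) and *F2rl3* (log2 4.54) were higher in D and *F2rl1* (log2 -4.19) higher in EVP, and *F2rl2* did not pass (log2 1.59). The nucleotide receptors *P2ry1* (log2 -2.67), *P2ry2* (log2 0.60) and *P2ry6* (log2 0.62) did not pass either.

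*Gpr4*, a proton sensor of endothelium (log2 5.61), and *Tacr1*, the substance P receptor (log2 5.85), were higher in D, whereas *Agtr1a*, an angiotensin receptor (log2 -5.49), and *Bdkrb1*, a bradykinin receptor (log2 -5.19), were higher in EVP. *Tacr1* in EVP, and *Agtr1a* and *Bdkrb1* in D, had libraries at 0, so the sizes of these differences depend on the pseudocount. That of *Tacr1* ran from 3.67 to 7.13 under the other settings. The other bradykinin receptor, *Bdkrb2*, passed as higher in D (log2 2.16, limma adjusted p = 0.027) and lost the call without EVP replicate 1, 2 or 5 or D replicate 1 or 2 (log2 1.69 to 2.13) and in edgeR (adjusted p = 0.072). Among 19 genes of G proteins, arrestins, receptor kinases and RGS proteins, 7 were higher in D (7.46% of all genes), 1 was higher in EVP (11.6% of all genes) and 11 did not pass (median log2 difference 0.47). The 7 were *Gnaq*, *Gna11*, *Gna12*, *Gnai2*, *Arrb1*, *Grk2* and *Rgs3*, with log2 differences of 0.77 to 2.22, and the 1 was *Grk3* (log2 -4.53).

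**Figure D5:**
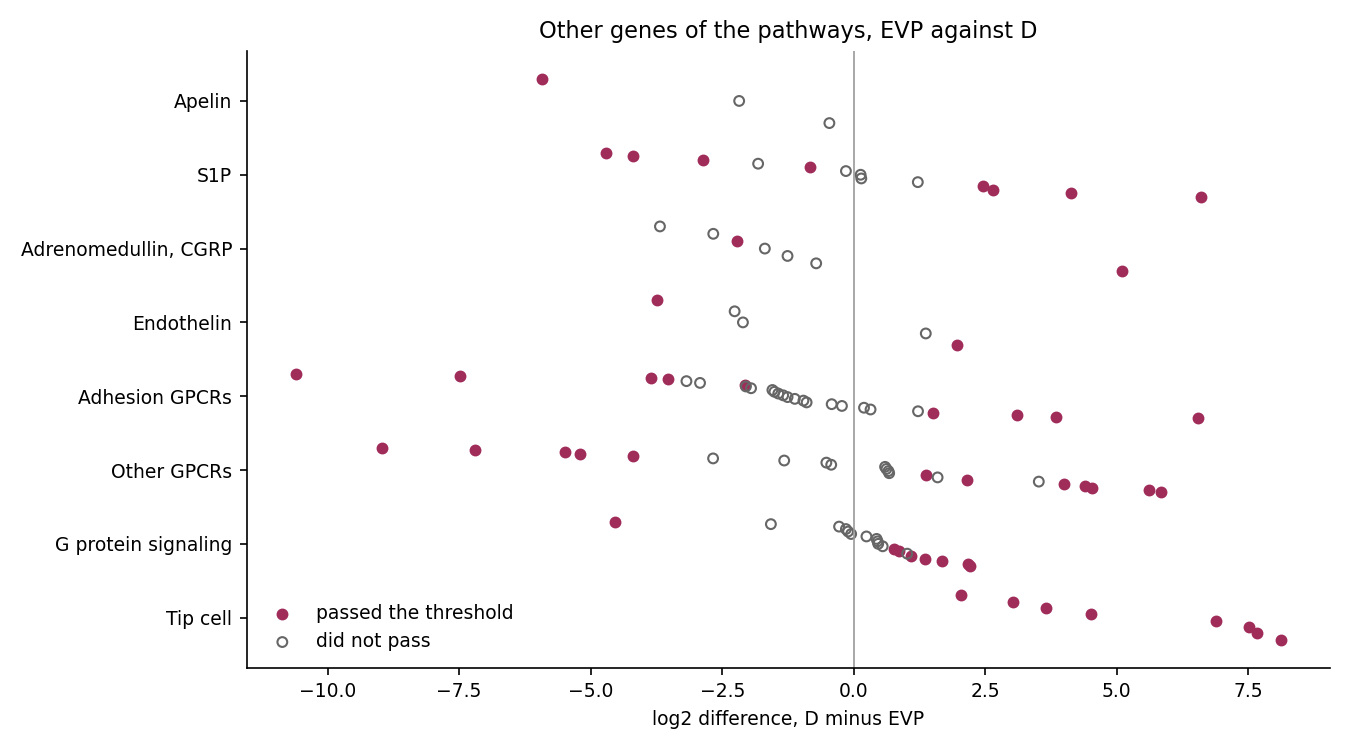
Log2 difference, D minus EVP, of the 103 tested genes of 8 lists, each a point in the row of its list, filled where the limma threshold was passed and open where it was not. Filled points lie on both sides of 0 in every list but the apelin list, whose only filled point is below 0, and the tip cell list, whose 8 points are above 0.

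Between EVP and TA, 17 of the 103 genes were higher in TA, 1 was higher in EVP and 85 did not pass (median log2 difference 0.46, beside -0.09 for all genes). Of all genes 3.5% passed, 1.94% with TA and 1.56% with EVP higher. Among the 17 were *Gpr4* (log2 3.92), *Ramp3* (log2 3.16), *Adgrg3* (log2 4.16), *Lpar6* (log2 2.39), *Adora2a* (log2 2.24) and *Adgrl2* (log2 1.80). *Spns2* passed too (log2 3.39, limma adjusted p = 0.0253), and lost the call without EVP replicate 2 or 3 or TA replicate 1, 3 or 4 (log2 2.88 to 3.12) and when only these populations were fitted (adjusted p = 0.0969). The number of all genes that passed between EVP and TA was 893, and it was 428, 471 and 568 without EVP replicate 2, EVP replicate 3 and TA replicate 3. Of the 893, 495 were higher in TA and 398 in EVP, a split that moved to 716 and 240 with all libraries scaled to the same total and to 449 and 214 in edgeR. It turned to 545 and 621 with a pseudocount of 8 and to 274 and 387 when only these populations were fitted.

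Between TA and D, 24 were higher in D, 16 were higher in TA and 63 did not pass (median log2 difference -0.28, beside -0.24 for all genes). Without single libraries, those higher in D ranged from 14 (D replicate 2) to 29 (TA replicate 1) and those higher in TA from 15 to 20. The split was 14 and 16 without D replicate 2, 15 and 15 without D replicate 3 and 16 and 16 without D replicate 4. Of all genes 12.5% passed, 4.31% with D and 8.21% with TA higher. *Spns2* (log2 3.20), *Plpp1* (log2 1.77), *Ece1* (log2 1.37), *Lpar6* (log2 2.01) and *Adora2a* (log2 1.76) were higher in D, and *Adgrd1* (log2 -8.40), *Lpar1* (log2 -6.97), *Adora2b* (log2 -5.71), *Ednra* (log2 -4.48) and *Sphk1* (log2 -3.54) higher in TA. The call of *Adora2a* was lost with quantile normalization (adjusted p = 0.0643). *Ramp3* passed (log2 1.93, limma adjusted p = 0.0376) and lost the call without TA replicate 2 or 5 or D replicate 2, 3, 4 or 5 (log2 1.51 to 1.98), with no minimum mean (adjusted p = 0.0626) and with quantile normalization (adjusted p = 0.131).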

How the data were processed

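Processed data of 15 RNA sequencing libraries (EVP, TA and D, n = 5 each) were used. Per the labels and methods, libraries were made by a modified Smart-Seq2 protocol, base calls were converted with bcl2fastq 2.17, and reads were aligned to GRCm38 with STAR 2.5.3a and counted per gene with HTSeq-count. The deposited values are a signal: the authors divided the count of each gene by a size factor of the library from DESeq2 1.10.1. Dividing by the smallest value above 0 of each library gave whole numbers for 100% of values (tolerance 0.001), so whole reads were recovered. The authors also deposited tables of their own comparisons (means, fold changes and p-values), which were not used. Smart-Seq2 reads carry no strand and no molecular identifiers, so reads of genes that overlap on opposite strands cannot be told apart.

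The 10 genes and all lists were chosen with earlier results of these data known. Log2(normalized count + 1) of 25549 genes (mean 5 or more) was compared with limma 3.58.1 in R 4.3.3 (trend, all 15 libraries, two-sided, Benjamini-Hochberg adjusted p under 0.05 over all genes). Counts of libraries that do not overlap used the same genes. Where a population had libraries at 0, the size of a log2 difference depends on the pseudocount. Folds are ratios of means, values after ± are SDs, and standard errors are those of limma for levels and of a difference of means for levels relative to markers. Named were the 10 genes, 13 pathway genes nearest to them, and other list genes past the threshold in at least 1 comparison. A few list genes that did not pass and *Gm10800* were named after their values were seen. Genes that share a symbol with another (220, among them *Ece2* and *Itgam*) were left out of lists. Of 106 listed genes, 103 were tested. Lengths are summed exons of GENCODE for GRCm38.

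Alternatives were pseudocounts of 0.5 and 8, no minimum or a minimum of 20, scaling to the same total, quantile normalization, array weights, fits of 2 populations, a block for the replicate number, edgeR 4.0.16 (TMM) and DESeq2 1.42.0 on whole reads, and each library left out. Added after seeing the data were fits without replicate 1 of every population and without replicate 5 of EVP and TA. The limma step was also run on simulated counts with few changed genes, a setting unlike these data, and nothing is drawn from that run. The result of 1 listed gene is not reported here.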

Additional observations from a re-analysis of the deposited data

Results flagged for a closer look

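Within populations, 23 genes (the 10 described and the 13 nearest pathway genes) gave 69 groups of 5 libraries, in which a single library far from the other 4 was looked for with Dixon's criterion (gap over range above 0.71). It was met in 7. A rate of about 1 in 20 holds for independent groups of normal values, and these groups share libraries, so the 7 are not set against it. Where 4 libraries are at 0, as for *Apela*, any value above 0 in the other meets the criterion. *Ramp2* in D replicate 4 had 4377 normalized counts beside 2329.8 to 2703 in the other D libraries. *Apela* had 70.2 in EVP replicate 1 and 8.72 in TA replicate 5, each beside 0 in the other libraries of its population. *Sphk1* in TA replicate 1 had 119 beside 384 to 531, and *Ramp1* in the same library had 43.1 beside 217 to 344. *Sphk2* in TA replicate 3 had 10.0 beside 242 to 524. *Plpp3* in TA replicate 5 had 2668 beside 5172 to 5772.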

How the results depend on the processing

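The directions of the 10 genes between EVP and D and between TA and D were the same under every alternative run. Between EVP and TA, 3 genes reversed. *S1pr3* moved to 0.011, *Calcrl* to -0.048 and *Ramp2* to -0.63 (log2, TA minus EVP) with array weights, *Calcrl* to -0.11 without EVP replicate 3 or TA replicate 1 and to -0.07 without TA replicate 3 (leave-one-out range -0.11 to 0.36), and *Ramp2* to -0.12 without TA replicate 1 (range -0.12 to 0.75) and to -0.29 without replicate 1 of every population. The median relative to endothelial markers was 0.11 with a pseudocount of 8. Array weights gave 7609 genes between EVP and D and 5054 between TA and D (4859 and 3199 in the fit reported). DESeq2 gave 1900 genes and 31 pathway genes between EVP and TA (893 and 18), and 522 genes passed there without replicate 1 of every population. The cause was not tested. On whole reads edgeR called 3849, 663 and 2570 genes between EVP and D, between EVP and TA, and between TA and D. Scaling moved the median log2 difference of all genes between EVP and D from -0.46 to -0.36 (same total) or -0.04 (quantile), between EVP and TA from -0.09 to 0.08 or -0.02, and between TA and D from -0.24 to -0.29 or 0.03.

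Without single libraries, in the order EVP and D, EVP and TA, TA and D, genes called ranged from 4106 to 5150, 428 to 1209 and 2403 to 3581, pathway genes from 48 to 53, 13 to 22 and 30 to 49, and the median log2 difference of the 10 genes from 5.92 to 6.37, 3.24 to 4.23 and 1.77 to 2.78. The median relative level ranged from -0.34 to -0.06 and the median position of TA from 0.49 to 0.69. No call of a pathway gene reversed, and 127 of 1620 of those refits and 82 of 1403 under the other settings lost the call. With the replicate number as a block, 5710, 1262 and 4047 genes and 56, 24 and 49 pathway genes passed, and the median differences of the 10 genes were 6.12, 3.77 and 2.34. Deviations of log2 levels from the mean of the population were correlated between libraries of different populations. In these deviations, libraries with the same number correlated over 0.1 in 11 of 15 pairs (-0.14 to 0.69), and 12 of 15 libraries correlated best with their own number. Pairs with different numbers ran from -0.56 to 0.40. The sources do not say that equal numbers share animals, and not every pair was over 0.1, so the main fit had no block. Whether libraries with equal numbers share an animal or a batch was not tested. Levels under about 10.5 normalized counts are within the limit of 3 reads in the shallowest library.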
